A study of Mus musculus with 4 samples.

Results

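The autophagy machinery was followed here as 40 mouse genes, out of 40092 in the deposited table, in alveolar type 2 (AT2) cells sorted from lung on day 14 after bleomycin injury. The members were chosen by gene symbol from a list of the proteins that start, build and load the autophagosome, and the rule used no measured value, although the list was drawn up with earlier results of these data known. RNA-seq compared 2 control libraries (Ctrl, Alkbh5flox/+; Sftpc-CreERT2; Rosa26-mTmG) with 2 knockout libraries (A5-CKO, Alkbh5flox/flox with the same Sftpc-CreERT2 and Rosa26-mTmG alleles), and asked which transcripts differed when AT2 cells lacked Alkbh5. ALKBH5 removes the m6A mark from RNA. Both groups received tamoxifen and bleomycin, and the controls were littermates that still carried a floxed allele. The recombinase was driven by Sftpc, so deletion and green labelling were limited to cells that expressed this surfactant gene, and the sorted population was defined by the label and not by its state at the time of sorting. The labels gave neither the age of the mice nor whether a library came from a single animal, so p-values measured the spread between these libraries.

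Autophagy is the route by which a cell encloses part of its own cytoplasm in a double membrane, the autophagosome, and delivers it to the lysosome. The ULK kinase complex starts the process when nutrient signalling through mTORC1 falls, a lipid kinase complex built around PIK3C3 marks the site, and lipids are then supplied to the growing membrane. A ubiquitin-like conjugation system attaches the ATG8 proteins (LC3 and GABARAP families) to that membrane, ATG4 proteases prepare and recycle them, and cargo receptors such as p62 hold the cargo against them. In AT2 cells, which store surfactant in lysosome-related lamellar bodies, this route is known for its part in lipid handling and in the clearance of damaged mitochondria.

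Among the roles of the members, the ATG4 proteases and the ATG8 family had the lowest median log2 fold changes, and were picked out for them. Negative values were also common in other roles, in 5 of 6 genes of the PIK3C3 complex and 5 of 7 conjugation genes. Of the 36 tested members, 11 were positive. In all 3 tested ATG4 genes and 3 of the 4 tested ATG8 genes, each A5-CKO library was below each Ctrl library, as in 23.5% of all tested genes, with median log2 fold changes of -0.61 and -0.55, and of the tested members of both roles Atg4c and Gabarapl1 turned positive when libraries were scaled by total counts only. Their RefSeq promoters on GRCm38.p6 are shown for the members of these roles that lay lower and had an entry (Atg4c, with a smaller difference and more than 1 entry, is left out), with Atg3 added because it held the motif that was searched. Each run is the 250 bases before the start of its entry, read 5′ to 3′ on the plus strand. The Atg4d run extends past the RefSeq start of the gene, at 21265205. Capitals mark CACGTG, the E-box bound by TFEB and other factors of its class.
Map1lc3b, chr8:121590188-121590437: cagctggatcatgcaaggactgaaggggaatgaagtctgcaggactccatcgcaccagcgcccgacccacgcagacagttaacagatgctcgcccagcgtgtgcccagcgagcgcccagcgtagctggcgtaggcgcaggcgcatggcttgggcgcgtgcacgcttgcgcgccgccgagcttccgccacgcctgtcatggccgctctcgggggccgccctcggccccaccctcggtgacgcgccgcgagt
Gabarapl2, chr8:111940453-111940702: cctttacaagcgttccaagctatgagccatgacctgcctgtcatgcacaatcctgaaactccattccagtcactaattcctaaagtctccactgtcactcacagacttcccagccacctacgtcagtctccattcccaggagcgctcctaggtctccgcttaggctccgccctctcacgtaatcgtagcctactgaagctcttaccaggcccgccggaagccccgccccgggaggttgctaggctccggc
Atg4b, chr1:93754655-93754904: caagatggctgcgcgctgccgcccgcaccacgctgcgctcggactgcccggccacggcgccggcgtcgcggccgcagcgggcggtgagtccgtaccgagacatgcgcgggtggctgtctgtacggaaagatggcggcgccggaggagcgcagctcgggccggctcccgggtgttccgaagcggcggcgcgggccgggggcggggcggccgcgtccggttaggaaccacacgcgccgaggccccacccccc
Atg4d, chr9:21265035-21265284: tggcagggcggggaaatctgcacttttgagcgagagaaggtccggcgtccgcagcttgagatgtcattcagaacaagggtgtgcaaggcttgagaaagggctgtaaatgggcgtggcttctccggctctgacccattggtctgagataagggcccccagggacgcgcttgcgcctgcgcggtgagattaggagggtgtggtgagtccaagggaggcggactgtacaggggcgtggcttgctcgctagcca
Atg3, chr16:45158579-45158828: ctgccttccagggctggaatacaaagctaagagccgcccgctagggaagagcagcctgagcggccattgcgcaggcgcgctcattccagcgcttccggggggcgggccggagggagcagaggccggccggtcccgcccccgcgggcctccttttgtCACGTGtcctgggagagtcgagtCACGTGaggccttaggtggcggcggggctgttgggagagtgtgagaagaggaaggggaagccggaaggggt

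RefSeq promoters were matched for 32 of the 40 members, and Map1lc3a and Rb1cc1, described below, were not among them. CACGTG, which reads the same on both strands, was present in 3 of the 32 members (9.38%), Atg3, Atg5 and Atg7, against 6.86% of all 27025 genes with a window. Atg3 held 2 copies, which ended 88 and 65 bases before the start. The Atg7 window lay inside the gene, at an internal start. The Atg5 window ended at 44268338, past the RefSeq start of the gene at 44268322. Its E-box ended 8 bases before the window's end and so lay inside the gene. The longer CLEAR motif, the E-box with GT directly before it and AC directly after it, was in 0 of the 36 member windows and in 0.24% of all 32851 windows. These matches describe the letters in the windows only.

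The libraries held from 18144865 to 20811757 counts, and filterByExpr kept 16661 genes for edgeR's quasi-likelihood test. Levels are given as CPM, counts scaled to TMM-adjusted library sizes, in the order Ctrl 1, Ctrl 2, A5-CKO 1, A5-CKO 2, and differences as log2 fold changes of A5-CKO minus Ctrl. The detection floor was set at 3 counts, worth from 0.128 to 0.177 CPM, and covers counting error only. Alkbh5 itself had 81.7, 152, 19.3 and 36.6 CPM, lower in both A5-CKO libraries, at -2.06 on the log2 scale (standard error, SE, 0.46, adjusted p = 0.528 by edgeR). The 10 AT2 markers were all detected, and their summed level was 56700, 82200, 42200 and 34900 CPM, with 7 of the 10 lower in both A5-CKO libraries. The 10 macrophage markers summed to 3010, 471, 265 and 2410 CPM and the 7 fibroblast markers to 398, 149, 96.2 and 1020 CPM, so that Ctrl 1 and A5-CKO 2 were the libraries with more of both. The 7 markers of transitional cells summed to 2970, 1240, 1770 and 3130 CPM, again highest in those 2 libraries. Of the 8 AT1 markers, 4 were higher in both A5-CKO libraries (Hopx, Cav1, Akap5 and Clic5) and Aqp5 was lower in both, while Ager and Pdpn were near 0 in every library and the summed level was 1500, 1250, 1270 and 1290 CPM. The 6 endothelial markers summed to 142, 217, 97.2 and 209 CPM, although Cldn5 among them was at 0 in all 4 libraries. The 3 club cell markers summed to 2750, 2670, 1890 and 1230 CPM, with 2 of the 3 lower in both A5-CKO libraries. The 8 pan-leukocyte and lymphoid markers summed to 384, 513, 309 and 586 CPM, with 1 (Ptprc) higher and 2 lower in both A5-CKO libraries. The part of these marker levels in the results on autophagy genes was not tested, and in bulk samples fewer cells of a type and less RNA per cell cannot be told apart.

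Of the 40 members, 36 had enough counts to be tested, with from 109 to 18425 counts in a library. No member passed an adjusted p of 0.05 (smallest adjusted p 0.528, edgeR with Benjamini-Hochberg adjustment over all genes), nor did any member with DESeq2 or limma voom. The share among all tested genes in edgeR was 0.0%, and limma voom also called 0 genes. DESeq2 called 55 genes when run on the same genes and 57 with its default filtering. At an unadjusted p under 0.05 in edgeR, 1 member was higher in A5-CKO (Rb1cc1) and 2 were lower (Map1lc3a and Atg4b), against 4.48% and 4.71% of all tested genes, and the members' share in either direction (3 of 36) was close to the 9.18% of all tested genes. Each A5-CKO library was above each Ctrl library in 5 members (13.9%, against 20.3% of all tested genes) and below in 13 members (36.1%, against 23.5%). The groups overlapped in the other 18. The median log2 fold change of the 36 members was -0.18, against -0.02 for all tested genes, and 25 of the 36 were negative, against 50.9% of all tested genes. The members' median moved with the scaling, as did that of all tested genes. It was -0.13 against 0.03 with RLE factors, -0.08 against 0.08 with upper-quartile factors and 0.15 against 0.30 with total counts only. The members' median was the lower of the pair each time, and of these scalings only total counts turned its sign. With total counts only, 9 of 36 members were negative, 10 lay above (34.8% of all genes) and 4 below (10.1%).

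**Figure D1:**
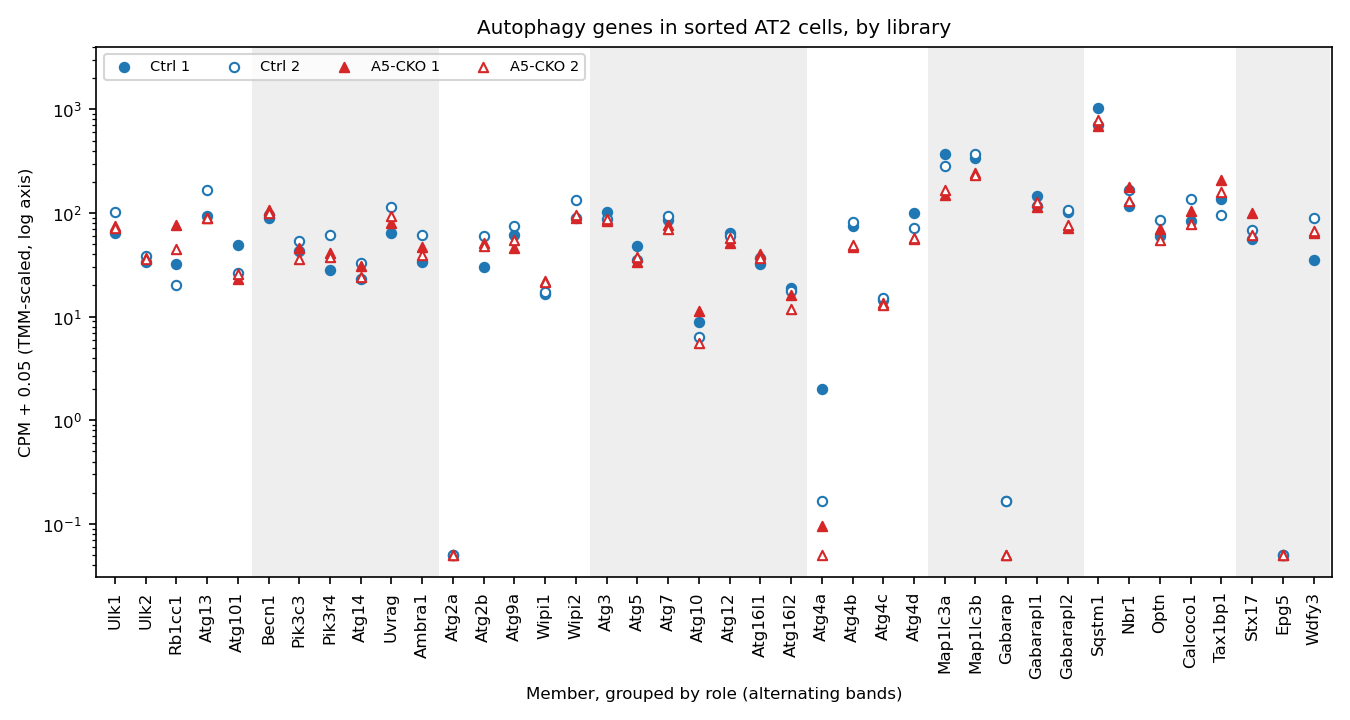
Levels of the 40 members in each library, as CPM plus 0.05 on a log axis (so that 0 can be drawn, at 0.05), with blue circles for Ctrl, red triangles for A5-CKO, filled for library 1 and open for library 2, and alternating bands for the roles in the order of the text. Sqstm1 is highest at 688 to 1040 CPM, the red triangles lie below the blue circles for Map1lc3a, Map1lc3b and Gabarapl2, and Atg2a, Epg5, Gabarap and Atg4a lie at or near the bottom.

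**Figure D2:**
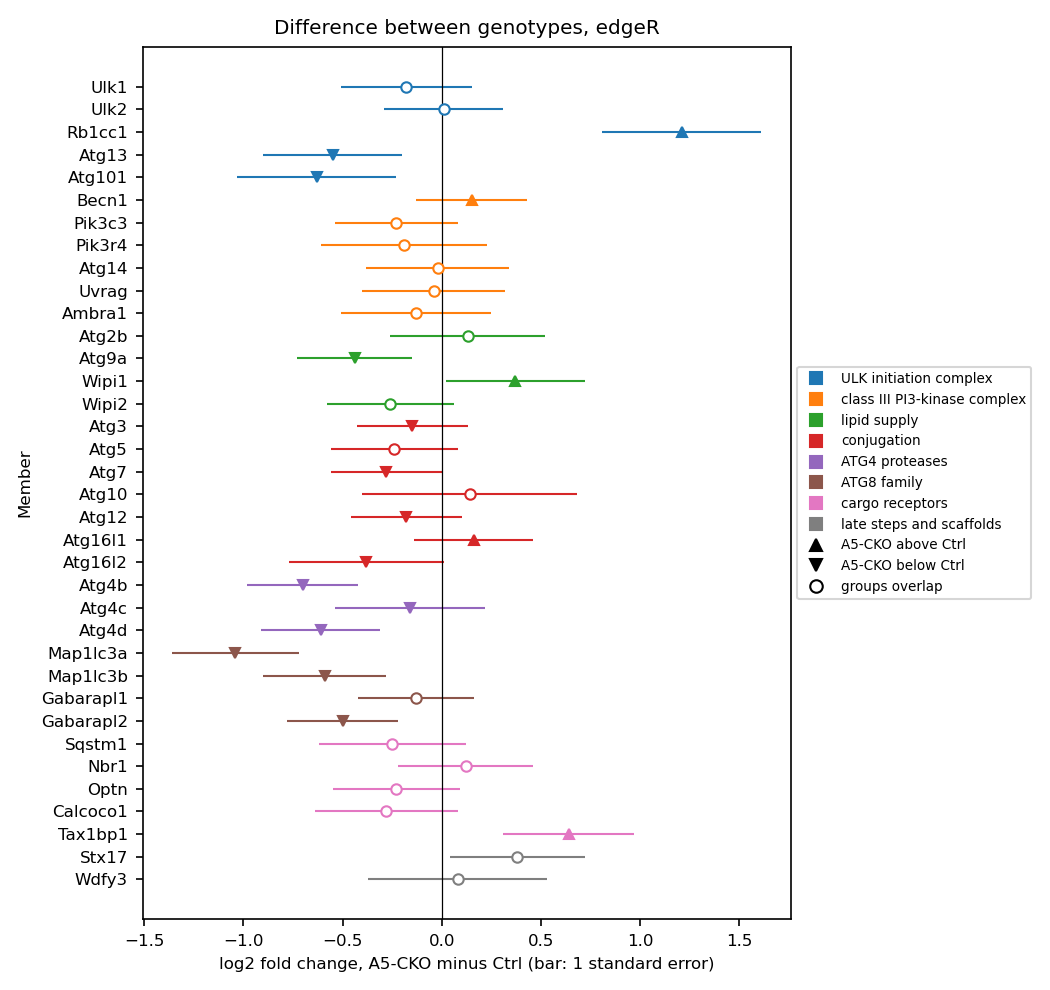
Log2 fold change of A5-CKO minus Ctrl for the 36 tested members, with bars of 1 standard error from edgeR, colours for roles, upward triangles where both A5-CKO libraries lay above both Ctrl libraries, downward triangles where they lay below and open circles where the groups overlapped. Values run from -1.04 (Map1lc3a) to 1.21 (Rb1cc1), and the ATG4 and ATG8 members lie to the left of 0, where with total counts only Atg4c and Gabarapl1 would lie to the right.

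Among the 5 members of the ULK initiation complex, Rb1cc1 (chr1:6214634-6276375, GRCm38.p6) was the gene with more RNA in A5-CKO cells. Rb1cc1 encodes FIP200, the scaffold of the complex. It had 32.5 and 20.1 CPM in Ctrl and 76.6 and 45.2 CPM in A5-CKO. Both A5-CKO libraries lay above both Ctrl libraries, though A5-CKO 2 was closer to Ctrl 1 than to A5-CKO 1. This was 2.32-fold, or 1.21 on the log2 scale (SE 0.40, adjusted p = 0.528 by edgeR). The unadjusted p was above 0.05 without Ctrl 2, at a log2 fold change of 0.88, and without A5-CKO 1, at 0.78. Rb1cc1 overlaps the noncoding gene 4732440D04Rik, which stood at 1.34 on the log2 scale, and whether reads were counted by strand is not given in the sources used here.

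The partners of FIP200 had log2 fold changes at 0.01 or below. Atg13, the subunit that links the kinase to the scaffold, had 94.1 and 167 CPM in Ctrl and 89.1 and 89.4 CPM in A5-CKO. Both A5-CKO values lay just under Ctrl 1 and well under Ctrl 2, and the log2 fold change of -0.55 (SE 0.35) was -0.10 without Ctrl 2. Atg101, which stabilizes ATG13, had 49.5 and 26.5 CPM in Ctrl against 23.1 and 25.9 CPM in A5-CKO. Here Ctrl 2 lay less than 1 CPM above A5-CKO 2, and the log2 fold change of -0.63 (SE 0.40) moved to -0.03 without Ctrl 1. The kinases themselves overlapped between the groups, with 63.4 to 103 CPM and a log2 fold change of -0.18 for Ulk1 and 33.5 to 38.4 CPM and 0.01 for Ulk2.

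The class III PI3-kinase complex, which makes the phosphoinositide that marks the forming membrane, had values near 0, with a median log2 fold change of -0.08 over its 6 members. Becn1, the regulatory subunit Beclin 1, had 89.5, 96.1, 106 and 101 CPM. Both A5-CKO values lay above both Ctrl values, by a log2 fold change of 0.15 (SE 0.28) that was smaller than its error. The groups overlapped for the other members, with log2 fold changes of -0.23 for the catalytic subunit Pik3c3, -0.19 for its membrane anchor Pik3r4, -0.02 for Atg14, which directs the complex to autophagosome formation, -0.04 for Uvrag, which takes its place at endosomes, and -0.13 for Ambra1, a Beclin 1 partner. Pik3r4, Uvrag and Ambra1 were lowest in Ctrl 1 and highest in Ctrl 2, at 28.3 and 61.6, 63.6 and 114, and 33.4 and 61.3 CPM.

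Among the genes of lipid supply, Wipi1 and Atg9a separated in opposite directions. Wipi1, which reads the phosphoinositide mark, had 16.5, 17.2, 22.0 and 21.4 CPM. Its libraries agreed closely within each genotype, and the log2 fold change was 0.37 (SE 0.35). Atg9a, a lipid scramblase carried on vesicles that seed the membrane, had 61.9, 75.1, 45.6 and 55.2 CPM. Each A5-CKO library was below each Ctrl library, with a log2 fold change of -0.44 (SE 0.29). Atg2b, a lipid transfer protein, ranged from 30.0 to 59.9 CPM (log2 fold change 0.13) and Wipi2, which recruits ATG16L1, from 88.6 to 133 CPM (-0.26), both with overlapping groups whose lowest library was Ctrl 1 and whose highest was Ctrl 2.

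The 7 conjugation genes had a median log2 fold change of -0.18, with 4 below (57.1%, against 23.5% of all tested genes). Of the rest, 1 lay above (14.3%, against 20.3%) and 2 overlapped. Atg3, the enzyme that passes ATG8 proteins to the membrane lipid, had 102, 88.3, 83.5 and 87.8 CPM. A5-CKO 2 was less than 1 CPM under Ctrl 2, so the separation rested on a very small gap, and the log2 fold change was -0.15 (SE 0.28). Atg7, the activating enzyme of both conjugation branches, had 84.8, 93.4, 77.2 and 69.8 CPM, with every A5-CKO value under every Ctrl value (log2 fold change -0.28, SE 0.28).
Atg12, the ubiquitin-like protein joined to ATG5, had 64.2, 59.6, 51.6 and 57.5 CPM. Atg16l2, a homologue of ATG16L1, had 18.9, 17.7, 16.3 and 11.8 CPM. Both were lower in each A5-CKO library, with log2 fold changes of -0.18 (SE 0.28) and -0.38 (SE 0.39).
Atg16l1, which places the conjugation machinery at the membrane, went the other way, with 32.5, 36.4, 40.1 and 37.1 CPM and a log2 fold change of 0.16 (SE 0.30), and A5-CKO 2 lay less than 1 CPM above Ctrl 2. Atg5 ranged from 33.7 to 48.5 CPM (log2 fold change -0.24) and Atg10, the enzyme that joins ATG12 to ATG5, from 5.51 to 11.3 CPM (0.14), both with overlapping groups. Atg10 had the largest standard error of the tested members, 0.54.

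The ATG4 proteases cut the ATG8 proteins before lipidation and release them afterwards. Atg4b (chr1:93754905-93789606, GRCm38.p6), the most broadly acting of them, had 74.6 and 82.3 CPM in Ctrl and 47.2 and 49.1 CPM in A5-CKO. The libraries agreed closely within each genotype and the genotypes lay well apart, with a log2 fold change of -0.70 (SE 0.28, adjusted p = 0.528 by edgeR). Leaving out any of the 4 libraries kept the log2 fold change between -0.73 and -0.65, with an unadjusted p above 0.05 each time.
Atg4d had 100, 72.3, 55.6 and 57.5 CPM. Its A5-CKO libraries were nearly equal and both were below Ctrl, with a log2 fold change of -0.61 (SE 0.30, adjusted p = 0.540 by edgeR) that was -0.27 without Ctrl 1. Atg4c had 14.4, 15.2, 13.4 and 13.0 CPM, separated but close, with a log2 fold change of -0.16 (SE 0.38) that turned to 0.16 with total counts only, while Atg4b (-0.38) and Atg4d (-0.30) stayed negative.

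The ATG8 family carried the lowest fold change among the members. Map1lc3a (chr2:155276364-155278073, GRCm38.p6), which encodes LC3A, had 370 and 284 CPM in Ctrl and 150 and 167 CPM in A5-CKO. The A5-CKO libraries lay close together and far below both Ctrl libraries. The difference was -1.04 on the log2 scale, 2.06 times lower (SE 0.32, adjusted p = 0.528 by edgeR). It lay between -1.24 and -0.76 with each library left out, and the unadjusted p was above 0.05 without Ctrl 1, A5-CKO 1 or A5-CKO 2.
Map1lc3b, the LC3B gene whose lipidated product is the usual marker of autophagosomes, had 341, 372, 241 and 231 CPM. Again both A5-CKO libraries were lower, with a log2 fold change of -0.59 (SE 0.31, adjusted p = 0.549 by edgeR). Gabarapl2, also known as GATE-16, had 103, 108, 71.8 and 77.4 CPM, a gap larger than the difference within either genotype (log2 fold change -0.50, SE 0.28).
Gabarapl1 had 146, 118, 114 and 128 CPM. Its groups overlapped, its log2 fold change was -0.13 (SE 0.29), and it was the ATG8 member whose sign turned with total counts only (0.18). Summed over the family, ATG8 transcripts stood at 960 and 882 CPM in Ctrl and 576 and 604 CPM in A5-CKO.

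The cargo receptors mostly overlapped between the genotypes, with a median log2 fold change of -0.23 over 5 members. No member lay below, against 23.5% of all tested genes. Sqstm1, which encodes p62, had 1040, 705, 688 and 788 CPM. The Ctrl libraries differed from each other more than the A5-CKO libraries did, the groups overlapped, and the log2 fold change was -0.25 (SE 0.37). Tax1bp1, a receptor for ubiquitinated cargo and an adaptor for FIP200, had 138, 96.1, 206 and 158 CPM. Both A5-CKO libraries lay above both Ctrl libraries (log2 fold change 0.64, SE 0.33, adjusted p = 0.549 by edgeR), a difference that came to 0.37 without Ctrl 2 and 1.00 without Ctrl 1. Nbr1, a relative of p62, ranged from 117 to 178 CPM (log2 fold change 0.12), Optn, a receptor for damaged mitochondria and bacteria, from 54.5 to 86.3 CPM (-0.23), and Calcoco1, a receptor for endoplasmic reticulum, from 77.7 to 138 CPM (-0.28). All 3 had overlapping groups.

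Among the late steps and scaffolds, Stx17, the SNARE that fuses the closed autophagosome with the lysosome, ranged from 55.7 CPM in Ctrl 1 to 101 CPM in A5-CKO 1 (log2 fold change 0.38, SE 0.34). The A5-CKO 2 value lay between the Ctrl values, and the log2 fold change was -0.02 without A5-CKO 1. Wdfy3, which encodes the large scaffold ALFY for protein aggregates, had 34.8, 88.7, 63.5 and 67.6 CPM. Both A5-CKO libraries fell between the Ctrl libraries, and the log2 fold change of 0.08 (SE 0.45) was -0.36 without Ctrl 1 and 0.89 without Ctrl 2.

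The 4 members with too few counts to test came from different roles. Atg2a, a lipid transfer protein, and Epg5, a tether of autophagosome and lysosome, had 0 counts in all 4 libraries. A copy of Atg2a on a fix patch of the assembly had 23, 58, 27 and 12 counts, which means that its main copy did not take all reads of the gene. Gabarap, an ATG8 protein, had 2, 2, 0 and 0 counts, under the floor in every library. Atg4a had 33, 2, 1 and 0 counts, of which nearly all came from Ctrl 1, and it overlaps Psmd10, with 2, 16, 6 and 12 counts. Apart from Atg2a, whose patch copy held counts, whether these genes were unexpressed or their reads were not counted was not tested. The sums for the ATG8 family hold at most 2 counts of Gabarap per library.

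Levels of different genes were compared per kilobase of the longest protein-coding GENCODE M21 transcript, as the mean CPM per kb over the 4 libraries. Sqstm1 was highest at 302 CPM per kb (257 to 391 across libraries), followed by Map1lc3a at 218 (135 to 333), Map1lc3b at 113 (87.9 to 141), Gabarapl1 at 69.4 (62.4 to 80.0) and Gabarapl2 at 53.7 (42.8 to 64.1). Tax1bp1 followed at 45.5 (29.2 to 62.6). The ranges of neighbours in this order overlapped across libraries except for those of Map1lc3b and Gabarapl1. Within each single library, the first 5 of these genes kept the order given, though some gaps in Ctrl 2 were small. The 5 highest means, pooled over both genotypes, were thus those of p62 and the 4 tested ATG8 genes. Per kb, Tax1bp1 lay above Gabarapl2 in both A5-CKO libraries and below it in both Ctrl libraries. Sqstm1 alone made up from 18.6% (Ctrl 2) to 27.5% (Ctrl 1) of the summed CPM of the members. At the other end, the tested members with the lowest levels per length were Wdfy3 at 4.46 CPM per kb, Atg4c at 4.41 and Atg16l2 at 2.50.

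The 2 Ctrl libraries differed more in these genes than the 2 A5-CKO libraries. The median absolute log2 difference between libraries of a genotype was 0.46 in Ctrl and 0.16 in A5-CKO over the 36 members, against 0.50 and 0.43 over all tested genes. Ctrl 1 was the lowest and Ctrl 2 the highest of the 4 libraries for Atg14, Pik3r4, Uvrag, Ambra1, Atg2b, Wipi2, Ulk1, Ulk2 and Wdfy3, while Ctrl 1 was the highest for Sqstm1, Map1lc3a, Gabarapl1, Atg101, Atg3, Atg5, Atg12, Atg16l2 and Atg4d. A permutation of 2 against 2 libraries cannot reach a two-sided p under 0.333.

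The fold changes of the members varied with the base composition of their transcripts. Spearman's rho between log2 fold change and GC content was -0.59 across the 36 members, -0.58 across the 73 other tested genes of the pathway and -0.40 across all 13528 protein-coding genes tested, and with transcript length it was 0.32, 0.44 and 0.36. These are descriptions across genes that share the same 4 libraries, and genes are not independent replicates. Rb1cc1, with the lowest GC content (39.1%), had the highest fold change, and Map1lc3a, with the highest (63.1%), had the lowest. After a correction of each library for GC content and length, which covered 15237 genes, the log2 fold change was 0.47 for Rb1cc1, 0.26 for Tax1bp1, -0.55 for Map1lc3a and -0.78 for Atg4b (adjusted p = 0.674 by edgeR). The unadjusted p was then above 0.05 for Rb1cc1 and Map1lc3a and under it for Atg4b and Atg12. Of the 36 members, 31 were then negative, 8 had changed sign, and the median was -0.18 against -0.09 for all genes fitted. The ATG4 proteases remained negative in that fit, at -0.78, -0.48 and -0.70 for Atg4b, Atg4c and Atg4d, and so did Map1lc3b (-0.41) and Gabarapl2 (-0.61), whereas Gabarapl1 was at 0.08.

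**Figure D3:**
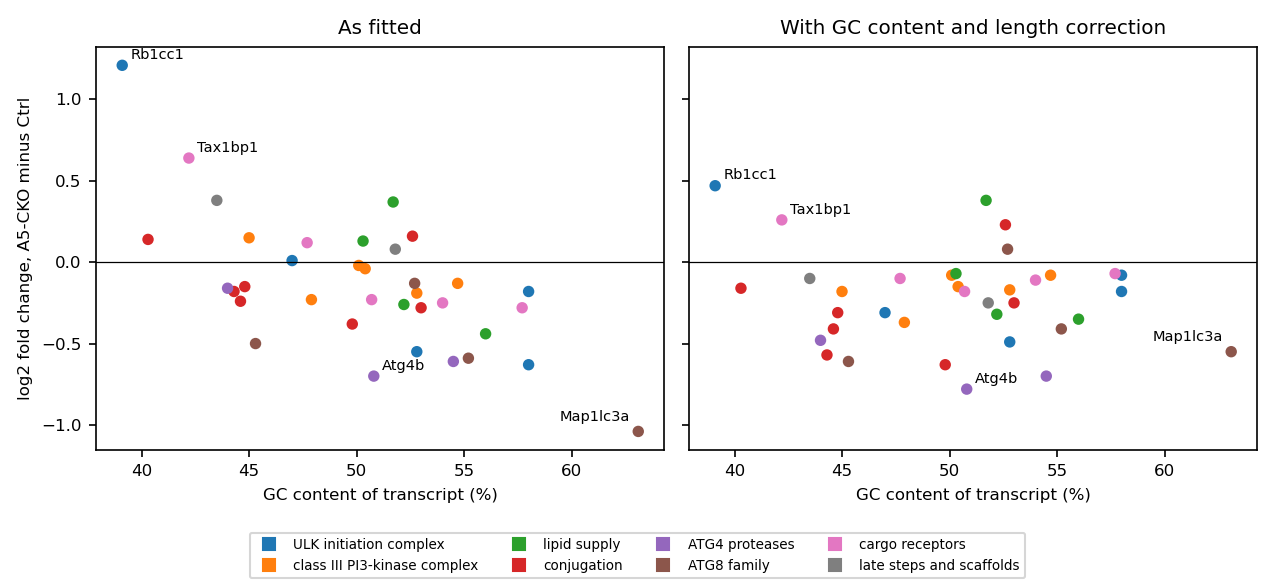
Log2 fold change of A5-CKO minus Ctrl against the GC content of the transcript in percent for the 36 tested members, as fitted (left) and corrected for both GC content and length (right), each point 1 gene coloured by role. On the left the points run from Rb1cc1 at 39.1% and 1.21 down to Map1lc3a at 63.1% and -1.04, and on the right these are at 0.47 and -0.55 while Atg4b is at -0.78.

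The wider pathway was read from 74 other genes, of which 73 were tested (Nrbf2 had 0 counts in all libraries). The edgeR test called 0 of them at an adjusted p of 0.05, and at an unadjusted p under 0.05 there were 4 higher and 6 lower (all tested genes, 4.48% and 4.71%). The median over these genes was -0.23 on the log2 scale, with 54 of 73 negative (all tested genes, 50.9%), 5 above (6.85%, against 20.3%) and 24 below (32.9%, against 23.5%). With total counts only the median was 0.09, against 0.30 for all tested genes, and 25 of 73 were negative, and after correcting for GC content and length the median was -0.24, against -0.09 for all genes fitted, and 61 were negative. Among the 6 transcription factors of autophagy genes all values were negative, with a median of -0.31, though 3 turned positive with total counts only. Tfeb, the master regulator of lysosome and autophagy genes, had 36.4 and 29.1 CPM in Ctrl and 15.5 and 18.8 CPM in A5-CKO, and both A5-CKO libraries were lower (log2 fold change -0.93, SE 0.35, adjusted p = 0.528 by edgeR). Tfeb stood at -0.62 with total counts only and at -0.59 with the correction. Its relative Tfe3 had -0.51, and the others had groups that overlapped.

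Upstream, the 24 genes of mTORC1 and its nutrient inputs had a median log2 fold change of -0.11, with 2 above (8.33%, against 20.3% of all tested genes) and 7 below (29.2%, against 23.5%). With total counts only that median was 0.22, against 0.30 for all tested genes. Lamtor4, a subunit of the Ragulator that holds mTORC1 at the lysosome, had 80.0, 48.1, 32.7 and 35.2 CPM (log2 fold change -0.91), and Akt1s1, the mTORC1 inhibitor PRAS40, had 130, 102, 57.4 and 70.6 CPM (-0.86). Both were lower in each A5-CKO library and were negative with total counts only (-0.61 and -0.55) and with the correction (-0.46 for each). Fnip1, the folliculin partner, was higher in each, at 40.5, 24.2, 56.0 and 60.9 CPM (log2 fold change 0.85, and 0.20 with the correction). Of the 8 AMPK and LKB1 genes, 2 were higher at an unadjusted p under 0.05 in edgeR (all tested genes, 4.48%). They were Prkab2 with 73, 79, 229 and 234 counts (log2 fold change 1.19) and Prkag3 with only 6, 2, 70 and 12 counts. These 2 were also the members of that list with both A5-CKO libraries above Ctrl (25.0%, against 20.3% of all tested genes). Another 3 lay below (37.5%, against 23.5%), namely Stk11, which encodes LKB1, at -0.50, Prkab1 at -0.36 and Prkag1 at -0.30.

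Among the 10 accessory autophagosome genes, Trp53inp1 differed most. Trp53inp1, a p53 target whose product binds ATG8 proteins, had 122 and 55.9 CPM in Ctrl and 259 and 260 CPM in A5-CKO, with both A5-CKO libraries above Ctrl (log2 fold change 1.54, SE 0.42, adjusted p = 0.528 by edgeR). It was 1.84 with total counts only and 0.95 with the correction. The other 8 tested genes of that list lay between -0.46 and -0.09. The list's median of -0.15 was 0.17 with total counts only, where the median of all tested genes was 0.30. Of the 15 organelle-selective receptors, none lay above (against 20.3% of all tested genes) and 5 below (33.3%, against 23.5%). The median of these receptors, -0.28, was 0.05 with total counts only. The 3 with an unadjusted p under 0.05 all act on mitochondria. Pink1, the kinase that tags damaged mitochondria, had 249, 310, 154 and 145 CPM (log2 fold change -0.90), Bnip3 had 158, 149, 86.3 and 79.2 CPM (-0.89) and Fkbp8 had 502, 358, 224 and 227 CPM (-0.93). In all 3 the A5-CKO libraries were close to each other and below both Ctrl libraries, and the values were negative with total counts only (-0.58, -0.58 and -0.62) and with the correction (-0.61, -1.19 and -0.52). By contrast, Bnip3l, a close relative of Bnip3, had 161, 149, 150 and 144 CPM (log2 fold change -0.08). Of the 11 genes of fusion with the lysosome, 5 lay below (45.5%, against 23.5% of all tested genes) and none above (against 20.3%). Their median of -0.25 was 0.08 with total counts only, where the median of all tested genes was 0.30.

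**Figure D4:**
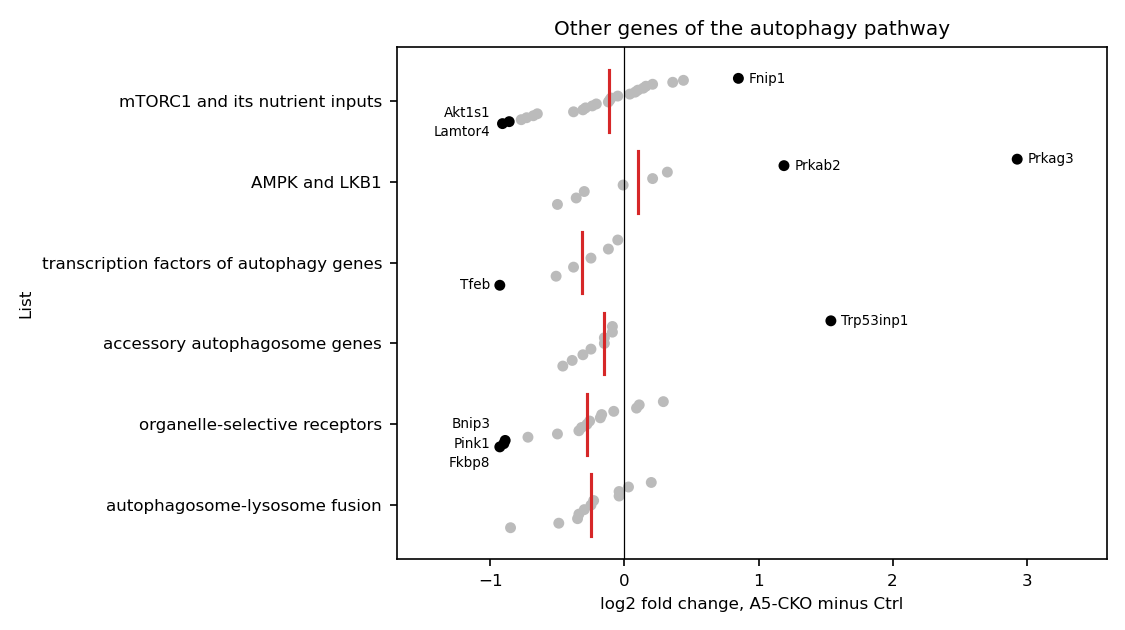
Log2 fold change of A5-CKO minus Ctrl for the 73 other tested genes of the pathway by list, with black points for an unadjusted edgeR p under 0.05, grey points for the rest and a red line at each list's median. The medians run from -0.31 for the transcription factors to 0.10 for AMPK and LKB1, and Prkag3, at 2.93 on the right, rests on 2 to 70 counts per library.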

How the data were processed

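RNA-seq was analysed from 2 Ctrl and 2 A5-CKO libraries of sorted AT2 cells. The authors trimmed reads with Trim Galore 0.6.10, removed ribosomal RNA reads, aligned with HISAT2 2.2.1 to mm10.p6, removed duplicates and deposited whole-number counts per gene from featureCounts 2.0.3, which the study's methods describe under another assay; the strand setting is not given in the sources used here. From these counts, edgeR 4.0.16 in R 4.3.3 (TMM factors, filterByExpr, quasi-likelihood test, Benjamini-Hochberg adjustment over 16661 genes) gave log2 fold changes, and was checked on simulated counts. The biological coefficient of variation was 41.6% (common dispersion 0.173). DESeq2 1.42.0, limma 3.58.1 voom, other scalings and filters, a robust fit, a replicate block, a correction for GC content and length (splines with 4 degrees of freedom) and each library left out were alternatives. All 40 members are named, with values of every library for those with an unadjusted p under 0.05, with groups that do not overlap, or among the 5 highest and 3 lowest per length. Up to 3 other pathway genes per direction and list with an unadjusted p under 0.05 are named, and Tfe3 and Bnip3l were chosen after their values were seen. The members were taken by symbol, and members and lists were chosen with earlier results of these data known. Of the 40 members, 15 overlap another RefSeq gene, and their counts are uncertain to that extent.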

Additional observations from a re-analysis of the deposited data

How the results depend on the processing

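No member had an adjusted p under 0.05 in edgeR, DESeq2 or limma voom under the 15 alternatives, and 13 of 36 members kept their sign throughout. The members with an unadjusted p under 0.05 and a negative value fell to 1 with upper-quartile factors, at least 10 counts in every sample, DESeq2 on the same genes or the replicate block. With total counts only there were 2 positive and 0 negative such members, 10 above and 4 below, and the median was 0.15. The signs that turned there were those of Ulk1 (0.15), Pik3c3 (0.09), Pik3r4 (0.15), Atg14 (0.31), Uvrag (0.30), Ambra1 (0.20), Wipi2 (0.07), Atg3 (0.16), Atg5 (0.07), Atg7 (0.04), Atg12 (0.13), Atg4c (0.16), Gabarapl1 (0.18), Sqstm1 (0.06), Optn (0.10) and Calcoco1 (0.05); this scaling raised the median of all genes to 0.30. Corrected for GC content and length, the data gave 0 positive members at that threshold and 3 above, and the signs turned for Ulk2 (-0.31), Becn1 (-0.18), Atg2b (-0.07), Atg10 (-0.16), Gabarapl1 (0.08), Nbr1 (-0.10), Stx17 (-0.10) and Wdfy3 (-0.25). Values near 0 turned elsewhere: Ulk2 with no filter (-0.03), Atg14 with RLE factors, the stricter filter and DESeq2 on the same genes (0.03), with upper-quartile factors (0.08) and with DESeq2 at its default filtering (0.01), and Uvrag with RLE factors, the stricter filter and DESeq2 on the same genes (0.01), with upper-quartile factors (0.07) and with limma voom (0.02). DESeq2 gave Alkbh5 -2.01 (adjusted p = 0.0248) on the same genes and -2.02 (adjusted p = 0.0254) at its default filtering. What caused these shifts was not tested.

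With each library left out in turn, the members with an unadjusted p under 0.05 ranged from 0 to 2 positive and from 0 to 3 negative, those above from 5 to 15 and those below from 16 to 21, and the median from -0.23 to -0.03. The share of all tested genes then rose too, to between 33.3% and 38.2% above and between 36.0% and 36.6% below, since 3 libraries separate more easily. There were 0 such members without A5-CKO 1, and the median of -0.03 and the 15 above came without Ctrl 2, while the 21 below came without Ctrl 1. Log2 fold changes that changed sign ranged from -0.41 to 0.19 for Ulk1, -0.01 to 0.08 for Ulk2, -0.56 to 0.45 for Pik3r4, -0.21 to 0.24 for Atg14, -0.32 to 0.42 for Uvrag, -0.42 to 0.35 for Ambra1, -0.20 to 0.69 for Atg2b, -0.44 to 0.04 for Wipi2, -0.27 to 0.04 for Atg3, -0.47 to 0.09 for Atg5, -0.46 to 0.57 for Atg10, -0.29 to 0.11 for Gabarapl1, -0.52 to 0.15 for Sqstm1, -0.12 to 0.37 for Nbr1, -0.43 to 0.03 for Optn, -0.52 to 0.10 for Calcoco1, -0.02 to 0.70 for Stx17 and -0.36 to 0.89 for Wdfy3. The lone sample left in a group was taken to vary like the other group.

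With the replicate number as a block, 1 member was positive and 1 negative at an unadjusted p under 0.05 (Rb1cc1 and Map1lc3a), and Uvrag turned to 0.02. No label ties a number to a litter or day. Same-numbered libraries deviated in opposite ways (correlation of deviations -0.348). With 2 libraries a group, this value cannot show whether same-numbered samples shared a litter or day. With 2 libraries a group and standard errors from 0.28 to 0.54, the 27 members within 0.5 of 0 cannot be read as unaltered.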

Other observations

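The members that could not be tested lie beside other genes with few counts. Next to Gabarap on chromosome 11, Ctdnep1 and Phf23 had 0 counts in all 4 libraries, and Dvl2, a step further, had 48, 52, 38 and 30 counts, with the Ctrl libraries given before the A5-CKO libraries. Near Epg5, Siglec15 had 0 counts in all libraries and Atp5a1, which encodes the alpha subunit of the mitochondrial ATP synthase, had 141, 195, 127 and 184 counts, whereas Atp5b, the beta subunit encoded elsewhere, had 16067, 16806, 13124 and 19221. Next to Atg4a, Psmd10, a chaperone of proteasome assembly, had 2, 16, 6 and 12 counts, while Col4a5, beyond its other side, had 755, 760, 1576 and 1209. Atp5b was chosen after its values were seen, and the cause of the low counts was not tested.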
